A study of Mus musculus with 2 samples.

Results

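The 4 platelet-derived growth factor (PDGF) ligand genes, Pdgfa, Pdgfb, Pdgfc and Pdgfd, and the 2 receptor genes, Pdgfra and Pdgfrb, were followed through the cells of the temporomandibular joint (TMJ). They were taken by gene symbol, 6 of the 32285 genes in the tables, and read in endothelial, mural, stromal and macrophage cells of both libraries. The data were 2 single-cell RNA sequencing (scRNA-seq) libraries of the joint from C57BL/6 mice 8 to 10 weeks old, all injected into the joint with Complete Freund's Adjuvant (CFA), an agent that provokes joint inflammation. One library came from wild type (WT) mice and the other from Prox1+/- mutant mice, which carry 1 working copy of the gene for Prox1, a transcription factor that sets lymphatic endothelial identity. The paper describes the mice as female. The number of mice behind each library is not given in the sources used here, and a library without CFA was not analysed here.

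PDGF ligands are secreted as dimers and bind receptor tyrosine kinases on neighbouring cells. The A and C chains act mainly through the alpha receptor, the D chain mainly through the beta receptor, and the B chain through both. In vessel walls, PDGF-B released by endothelium draws pericytes and smooth muscle cells that carry the beta receptor, while the alpha receptor is a hallmark of fibroblasts and their progenitors. The C and D chains are secreted in a latent form and need proteolytic activation.

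Each group had 1 library, so there was no replicate error and no test between the genotypes could be made. Levels are unique molecular identifiers (UMIs, 1 per captured transcript) of a gene per 1000000 UMIs of the cells named (CPM), with 95% exact Poisson intervals. Ratios are log2 of the mutant over the WT level with 95% exact intervals, and none of the intervals covers more than counting error inside 1 library. Pairs of values give WT first and the mutant second. Where a count was 0, the value said to be allowed is that of 3 UMIs or 3 cells. It lies below the upper end of the exact interval. In each of the 4 classes (endothelial, mural, stromal and macrophage), a difference was called when it reached 2-fold with at least 50 UMIs of the gene over both libraries. The share of genes called so in each of them is given where the members are counted, and no such share was computed for subtypes or other classes.

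The WT library kept 4352 cells with a median of 6997 UMIs and the mutant library kept 5757 cells with a median of 4848 UMIs, and 10 barcodes occurred in both libraries. Prox1 stood at 11.6 CPM (10.7 to 12.6) over all WT cells and 5.80 CPM (5.18 to 6.47) over all mutant cells, a log2 ratio of -1.01 (-1.21 to -0.80). Endothelial cells, which were 26.2% of WT and 11.2% of mutant cells, had 40.2 and 23.9 CPM of Prox1, a log2 ratio of -0.75 (-1.07 to -0.44). Endothelial cells with at least 3 of 6 lymphatic markers other than Prox1 numbered 12 in WT and 4 in the mutant. They were 0.276% and 0.0695% of all kept cells. The part of their number in the Prox1 ratios was not tested. Clusters were named from marker genes that did not include the 6 members, which were also left out of the clustering. Endothelial cells numbered 1141 in WT and 642 in the mutant, mural cells (smooth muscle cells and pericytes) 215 and 155, stromal cells 553 and 539, and macrophages 555 and 638. All 9 endothelial, 15 mural, 9 stromal and 9 macrophage markers were raised in their own class. The clusters had been named from these same lists, some with only 3 markers raised, so this does not test the names. Unnamed clusters held 7.72% of WT and 29.5% of mutant cells. A stromal cluster of 12 WT and 182 mutant cells, with Igha and Cxcl5 among its leading genes, and a smooth muscle cluster of 0 WT and 32 mutant cells came almost wholly from the mutant library. Class ratios of the members between libraries and between classes, and the counts of members called, were also computed without these clusters. They are given so where the value moved. Smooth muscle levels, shares of cells and of UMIs, and the pathway list were not recomputed without these clusters.

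Among the 4 classes, the ligands of the B and D chains were highest in endothelium, the A chain in mural cells, the C chain and the alpha receptor in stroma, and the beta receptor in mural cells. Each member had the same leading class of the 4 in both libraries. The smallest step from the leading to the next of them was 2.41-fold (1.89 to 3.12), for Pdgfc in WT, and the counting interval of every step lay above 1-fold.

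**Figure D1:**
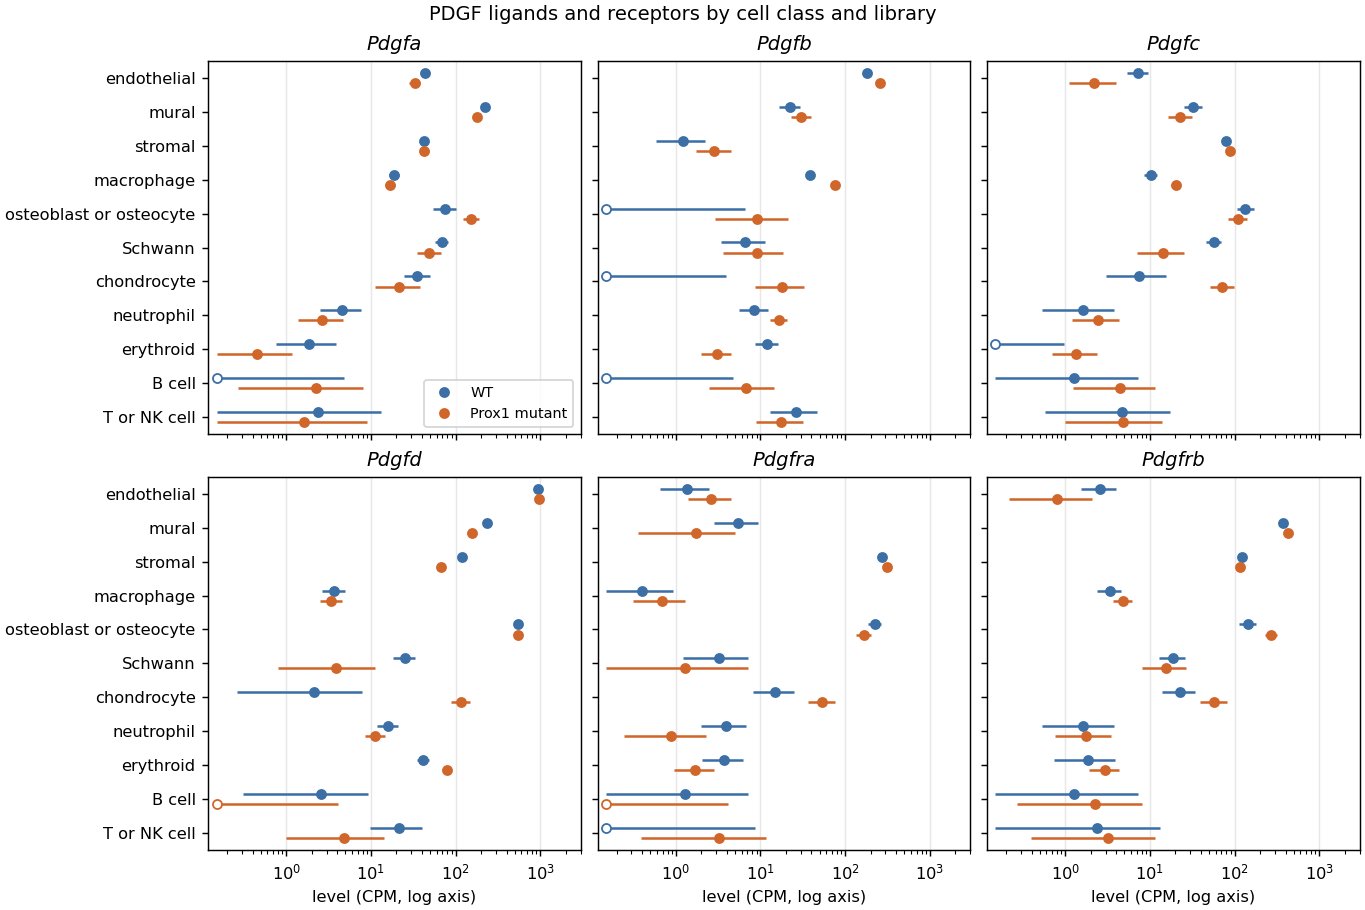
Level of each member (CPM, log axis) in endothelial, mural, stromal and macrophage cells and in 7 other named classes, in the WT library (blue) and the Prox1 mutant library (orange). Points are the levels, lines the 95% Poisson intervals, and open points at the left edge mark classes with 0 UMIs. Pdgfd in endothelial cells, at 953 and 976 CPM, was the highest level of that gene in the named classes.

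Pdgfd, the gene for the D chain (ENSMUSG00000032006, chromosome 9, 6168584 to 6378850, plus strand, in the GRCm38 build with GENCODE M21 annotation), stood at 953 CPM (931 to 976) in WT endothelial cells and 976 CPM (948 to 1004) in mutant ones. The ratio was 0.03 on the log2 scale (-0.02 to 0.09), so the endothelial levels could not be separated by counting error. Among the 4 classes mural cells came next with 232 and 156 CPM (WT and mutant), followed by stromal cells with 119 and 68.2 CPM. Macrophages had 3.66 and 3.42 CPM. Osteoblast or osteocyte cells, outside the 4 classes, had more than mural cells, at 549 and 544 CPM, with 140 of the mutant UMIs in 1 cell.

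Among the named endothelial subtypes Pdgfd was graded from arteries to veins. Arterial cells, led by genes such as Gja5, Sema3g and Sox17, had 1473 and 1881 CPM (WT and mutant). Capillary cells had 957 and 903 CPM, and venous cells 676 and 571 CPM. An unnamed endothelial cluster of 98 WT and 120 mutant cells had 274 and 251 CPM. The order arterial, capillary, venous was the same in both libraries, and the libraries differed in opposite directions at its ends, with a log2 ratio of 0.35 (0.27 to 0.44) in arterial and -0.24 (-0.36 to -0.13) in venous cells. Neither was a 2-fold difference.

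Pdgfd was lower in the mutant library in mural and stromal cells, though not in every class outside the endothelium. In pericytes, the contractile cells wrapped around capillaries, it stood at 392 and 174 CPM (WT and mutant), a log2 ratio of -1.18 (-1.62 to -0.76). In lining or tendon stromal cells, named on 3 raised markers with Fmod among the leading genes, it stood at 131 and 32.8 CPM, a log2 ratio of -2.00 (-2.46 to -1.56). The Pi16-positive stromal cells, a fibroblast population of the outer vessel sheath and fascia, had 114 and 81.3 CPM, a log2 ratio of -0.49 (-0.68 to -0.31). Prg4, a gene of the lining list, led the Pi16-positive cells and was not among the leading genes of the lining or tendon cells. Smooth muscle cells had 178 and 152 CPM, with an interval that spanned 0 (-0.49 to 0.03). In WT lining or tendon cells 98 of the 311 Pdgfd UMIs lay in 1 cell.

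Endothelial transcripts moved with Pdgfd in pericytes and in lining or tendon cells. The 9 endothelial markers summed to 900 CPM in WT and 394 CPM in mutant pericytes, with 1 and 3 of the 9 at 0, and to 90.9 and 24.1 CPM in lining or tendon cells, with 0 and 2 at 0. Their part in the ratios was not tested. Pericytes held 0.435 Pdgfd UMIs per endothelial marker UMI in WT and 0.44 in the mutant, which was 3.77 and 3.42 times the value in endothelial cells. Lining or tendon cells held 1.44 and 1.36, which was 12.5 and 10.6 times that value. Pi16-positive cells held 4.57 and 2.26, which was 39.6 and 17.6 times that value. Macrophages held less Pdgfd per endothelial marker UMI than endothelial cells did, 0.474 and 0.322 times as much, and the source of their Pdgfd was not tested.

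**Figure D2:**
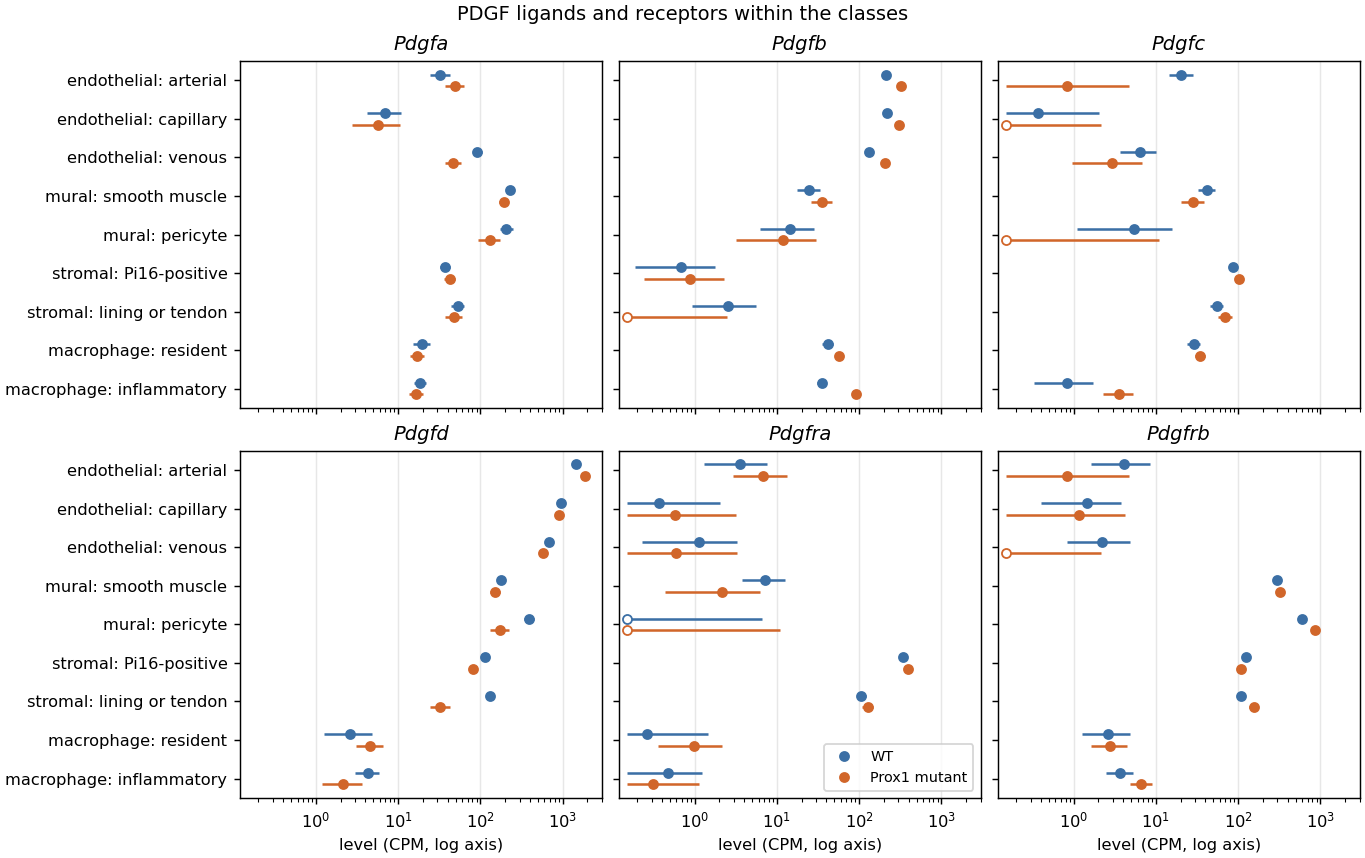
Level of each member (CPM, log axis) in 9 subtypes of the endothelial, mural, stromal and macrophage classes, in the WT library (blue) and the Prox1 mutant library (orange), with 95% Poisson intervals. Open points at the left edge mark 0 UMIs. Pdgfd declined from arterial to venous endothelium in both libraries, and its mutant points lay to the left of the WT points in pericytes and in lining or tendon cells.

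Pdgfb encodes the B chain (ENSMUSG00000000489, chromosome 15, 79995874 to 80014977, minus strand). It was led by endothelium, at 183 (174 to 193) and 262 (248 to 277) CPM (WT and mutant). The mutant level was higher by 0.52 on the log2 scale (0.41 to 0.63), under 2-fold. The difference had the same direction in arterial (214 and 325 CPM), capillary (216 and 302 CPM) and venous cells (133 and 206 CPM). In the unnamed endothelial cluster Pdgfb stood at 144 and 131 CPM, a log2 ratio of -0.13 (-0.80 to 0.55). In venous cells 80 of the 349 mutant UMIs lay in 1 cell, and the log2 ratio of 0.63 was 0.38 (0.14 to 0.62) without the cell of most UMIs in each library, an alternative chosen after seeing the data.

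Macrophages were the next class for Pdgfb, with 38.1 (34.7 to 41.6) and 75.1 (70.5 to 79.98) CPM (WT and mutant). The log2 ratio was 0.98 (0.82 to 1.14), just short of 2-fold. The median gene of this class had a log2 ratio of 0.21, and Pdgfb stood 0.77 above that median. In the inflammatory macrophages, led by Mmp12, Cxcl3 and Spp1 and with 3 of the 9 macrophage markers raised, Pdgfb went from 35.0 to 90.4 CPM, a log2 ratio of 1.37 (1.17 to 1.58). In the resident macrophages, led by genes such as C1qa, Mrc1 and Ccl8, it was 41.4 and 56.4 CPM, a log2 ratio of 0.45 (0.17 to 0.73). The interval of the inflammatory macrophages lay wholly above that of the resident ones, and the difference between them was not tested for lack of replicates.

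Endothelial transcripts were also counted in macrophages. The 9 endothelial markers summed to 66.8 and 82.3 CPM there, and in the inflammatory macrophages to 70.2 and 73.6 CPM. Macrophages held 25.7 times as much Pdgfb per endothelial marker UMI as endothelial cells in WT and 26.4 times as much in the mutant. Stromal cells held 1.248 and 1.228 times as much, at 1.22 and 2.86 CPM. Of their 19 mutant Pdgfb UMIs, 15 lay in the stromal cluster held almost wholly by the mutant library, which had 0 and 24.7 CPM. The source of the macrophage and of the stromal Pdgfb UMIs was not tested.

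Pdgfa, the A chain gene (ENSMUSG00000025856, chromosome 5, 138976014 to 138997370, minus strand), was highest in mural cells, at 223 (204 to 244) and 180 (160 to 201) CPM (WT and mutant). The log2 ratio was -0.31 (-0.52 to -0.11). Smooth muscle cells (229 and 192 CPM) and pericytes (208 and 129 CPM) both carried it, with overlapping intervals in WT. Stromal cells had 42.3 and 42.9 CPM, and endothelial cells 44.0 and 32.9 CPM, so those classes did not differ in WT beyond counting error.

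Within endothelium Pdgfa had an order unlike that of Pdgfd. Venous cells had 92 and 46.5 CPM (WT and mutant), arterial cells 32.8 and 49.5 CPM, and capillary cells 6.92 and 5.78 CPM. The venous log2 ratio was -0.98 (-1.37 to -0.61) and the arterial one 0.60 (0.04 to 1.15). In mutant arterial cells 25 of the 59 Pdgfa UMIs lay in 1 cell, and in mutant venous cells 31 of 79. Without the cell of most UMIs in each library the arterial log2 ratio was -0.02 (-0.69 to 0.64), so its direction rested on single cells, and the venous one was -1.54 (-2.02 to -1.08). An antisense gene, 6330403L08Rik, overlaps Pdgfa and had 122 WT and 105 mutant UMIs against 1693 and 1269 of Pdgfa over all cells.

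Pdgfc, the C chain gene (ENSMUSG00000028019, chromosome 3, 81036416 to 81214040, plus strand), was led by stromal cells among the 4 classes, at 78.3 (72.3 to 84.6) and 89.4 (82.4 to 96.9) CPM (WT and mutant). The log2 ratio was 0.19 (0.03 to 0.36). Osteoblast or osteocyte cells, outside the 4 classes, had higher levels in both libraries, at 134 and 110 CPM, with 44 of their 61 mutant UMIs in 1 cell. Pi16-positive cells had 87.8 and 101 CPM and lining or tendon cells 55.2 and 68.9 CPM. Mural Pdgfc, at 32.5 and 23.0 CPM, lay almost wholly in smooth muscle cells, with 109 of 112 UMIs, and pericytes held 3 WT and 0 mutant UMIs, which allows up to 8.82 CPM.

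Macrophage Pdgfc lay mostly in the resident cells, with 110 of 130 WT and 208 of 268 mutant UMIs. They had 28.8 and 34.1 CPM (WT and mutant), a log2 ratio of 0.24 (-0.10 to 0.59), while inflammatory macrophages had 0.83 and 3.55 CPM. Over all macrophages the level was 10.3 and 20.3 CPM (WT and mutant), a log2 ratio of 0.98 (0.67 to 1.29), which was 0.76 above the median gene. The mean of the cells' own CPM gave 0.27. After thinning each cell to 2000 UMIs, 2.61% of WT and 2.90% of mutant macrophages had a Pdgfc UMI, a difference of 0.29 points (-1.74 to 2.28). The inflammatory cells, with a median depth above that of the resident ones, were 253 of 555 macrophages in WT and 187 of 638 in the mutant, and an unnamed macrophage cluster of 51 and 104 cells had 38.9 and 62.4 CPM. The ratio over the class exceeded the ratio within resident cells.

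Over the 4 classes, endothelial Pdgfc was the 1 member called between the libraries, at 7.20 and 2.21 CPM (WT and mutant), a log2 ratio of -1.71 (-2.79 to -0.75). It rested on 53 and 11 UMIs, and 23 of the 53 lay in 1 WT arterial cell. Without the cell of most UMIs in each library the log2 ratio was -1.35 and fewer than 50 UMIs were left, so the call was lost. The mean of the cells' own CPM gave 0.52, the opposite direction. In WT arterial cells, where most of these UMIs lay, the 15 mural markers summed to 363 CPM against 48.7 CPM in mutant arterial cells, and their part in the result was not tested.

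Pdgfra, the alpha receptor gene (ENSMUSG00000029231, chromosome 5, 75152292 to 75198215, plus strand), was highest in stroma among the named classes. Stromal cells held 84.5% of its UMIs in WT and 86.7% in the mutant while being 12.7% and 9.36% of the cells. The stromal level was 270 (258 to 281) and 309 (296 to 323) CPM (WT and mutant), 49.8-fold (28.4 to 96.4) and 179-fold (61.2 to 870) above mural cells. Pi16-positive cells had 337 and 395 CPM, and lining or tendon cells 107 and 127 CPM. Pericytes held 0 Pdgfra UMIs in both libraries, which allows up to 5.37 and 8.82 CPM (WT and mutant).

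The direction of stromal Pdgfra between the libraries depended on how cells were weighted. The summed level gave a log2 ratio of 0.20 (0.11 to 0.28), and 0.29 without the cluster held almost wholly by the mutant library. The mean of the cells' own CPM gave -0.39. The unnamed stromal cluster, with 182 of the 539 mutant stromal cells, had 110 CPM in the mutant and a shallow median of 2706 UMIs over both libraries.

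Pdgfrb, the beta receptor gene (ENSMUSG00000024620, chromosome 18, 61045150 to 61085061, plus strand), was highest in mural cells, at 376 (351 to 402) and 426 (396 to 458) CPM (WT and mutant). Pericytes had 601 and 868 CPM and smooth muscle cells 300.02 and 319 CPM. The pericyte log2 ratio was 0.53 (0.30 to 0.76), the opposite direction to Pdgfd and Pdgfa in the same cells. Over all mural cells it was 0.18 (0.04 to 0.33), and -0.00053 with doublets removed. Stromal cells had 121 and 117 CPM, but being more numerous held 46.1% and 38.4% of the gene's UMIs, against 38.6% and 36.7% in mural cells. In stroma the lining or tendon cells were higher in the mutant (109 and 155 CPM, log2 0.51) and the Pi16-positive cells lower (126 and 109 CPM, log2 -0.22).

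**Figure D3:**
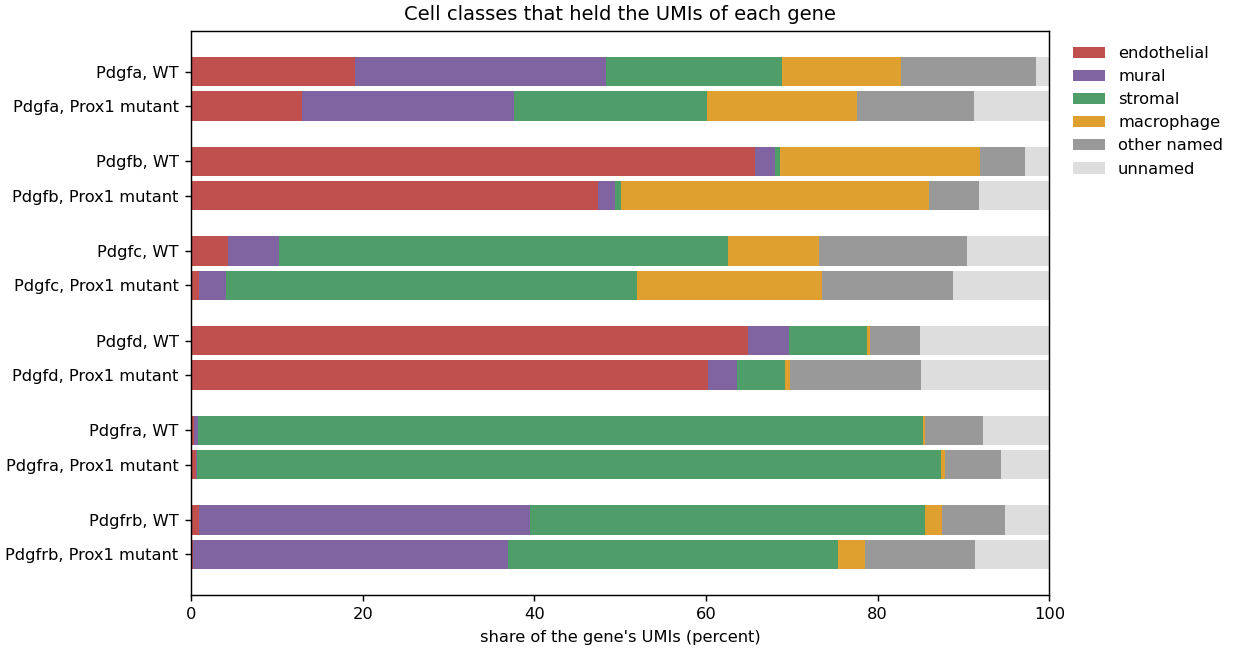
Share of the UMIs of each member (percent, horizontal axis) that lay in endothelial, mural, stromal and macrophage cells, in other named classes and in unnamed clusters, for the WT and the Prox1 mutant library. Endothelial cells held 65.7% of Pdgfb UMIs in WT and 47.4% in the mutant, and macrophages 23.3% and 35.9%.

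Where the transcripts of a ligand lay in the whole joint followed both its level per cell and the cells captured. Endothelial cells were 26.2% of WT and 11.2% of mutant cells. They held 65.7% of WT and 47.4% of mutant Pdgfb UMIs, and 64.9% and 60.2% of Pdgfd UMIs. Macrophages, 12.8% and 11.1% of the cells, held 23.3% and 35.9% of Pdgfb UMIs. Over all kept cells Pdgfd was 223 and 149 CPM, although its endothelial level was alike in both libraries. Whether a class was rarer in the joint or captured less often cannot be told apart here.

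Cell by cell, shares with a UMI were read once all cells were reduced by random draws to 2000 UMIs each (thinning). Thinning removes the difference in depth and leaves out shallower cells. Of endothelial cells, 30.5% (27.6 to 33.4) of the WT ones and 39.7% (35.7 to 43.8) of the mutant ones had a Pdgfb UMI, against 52.8% and 64.8% before thinning. With thinning to 1000 UMIs the Pdgfb difference was 3.65 points with an interval that spanned 0 (-0.31 to 7.76). For Pdgfd the shares were 65.5% and 63.4%, against 75.0% and 72.6%. At 2000 UMIs the mutant minus WT difference was 9.22 percentage points (4.34 to 14.1) for Pdgfb and -2.10 (-7.04 to 2.76) for Pdgfd. Blood lineages varied in Pdgfb level, with 0 and 6.72 CPM (WT and mutant) in B cells and 26.1 and 17.7 CPM in T or NK cells. Neutrophils had 8.45 and 16.6 CPM and erythroid cells 11.9 and 3.06 CPM. The endothelial Pdgfb shares are far above those of B cells, a lineage not known for PDGF expression. Of B cells, 0 of 119 in WT, which allows a share of up to 2.52%, and 2.11% of 95 in the mutant had a Pdgfb UMI, at median depths of 4013 and 4928.5 UMIs against 4236 and 5417.5 in endothelial cells.

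Differences between the libraries in the other leading classes had intervals that spanned 0. For mural Pdgfrb, stromal Pdgfc and stromal Pdgfra they ran opposite to the ratios of the summed levels, and for mural Pdgfa in the same direction. Pdgfa was found in 34.3% of WT and 27.1% of mutant mural cells (72.1% and 63.2% before thinning), Pdgfrb in 51.2% and 48.1% of mural cells (88.8% and 80.6%) and Pdgfc in 11.8% and 11.3% of stromal cells (34.5% and 28.9%). For Pdgfra the stromal shares were 39.7% and 33.8% (75.6% and 59.7%), a difference of -5.90 points (-11.8 to 0.09). Pi16-positive cells had Pdgfra in 49.4% and 48.0% of cells after thinning, and lining or tendon cells in 18.5% and 25.7%. The stromal cluster held almost wholly by the mutant library had it in 16.7% of its 138 mutant cells. The share over all stromal cells without that cluster was not computed. Of macrophages, 7.45% in WT and 10.9% in the mutant had a Pdgfb UMI (36.2% and 46.6% before thinning), a difference of 3.45 points (0.05 to 6.84). With thinning to 4000 UMIs, the mural Pdgfrb shares were 63.5% and 79.5%, the reverse order, in fewer cells. That difference was 16.0 points, with an interval above 0 (5.33 to 25.5).

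Ligand genes were often found in the same endothelial cells. After thinning, 20.7% of WT and 28.6% of mutant endothelial cells had UMIs of both Pdgfb and Pdgfd, close to the 19.97% and 25.2% that the product of the single shares gives. No thinned WT mural cell of 207 had UMIs of both receptors, which allows a share of up to 1.45%, and none of them had a Pdgfra UMI, which fixes that count. Of the mutant mural cells, 1 of 133 had both.

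UMIs of both receptors were found in part of the stromal cells. Of 532 thinned WT cells 59 had UMIs of both (11.1%, 8.55 to 14.1), 152 of Pdgfra only and 71 of Pdgfrb only. Of 468 mutant cells 30 had both (6.41%, 4.37 to 9.02), 128 Pdgfra only and 54 Pdgfrb only. The shares with both were close to the 9.69% and 6.06% that the product of the single shares gives. The difference of -4.68 points (-8.18 to -1.15) was -0.12 points with thinning to 1000 UMIs and -0.51 points with thinning to 4000 UMIs, so it is not read as a difference between the libraries. Pi16-positive cells had both in 13.8% and 10.2% of cells, and lining or tendon cells in 4.76% and 5.71%. The unnamed stromal cluster had both in 0.725% of its 138 mutant cells.

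**Figure D4:**
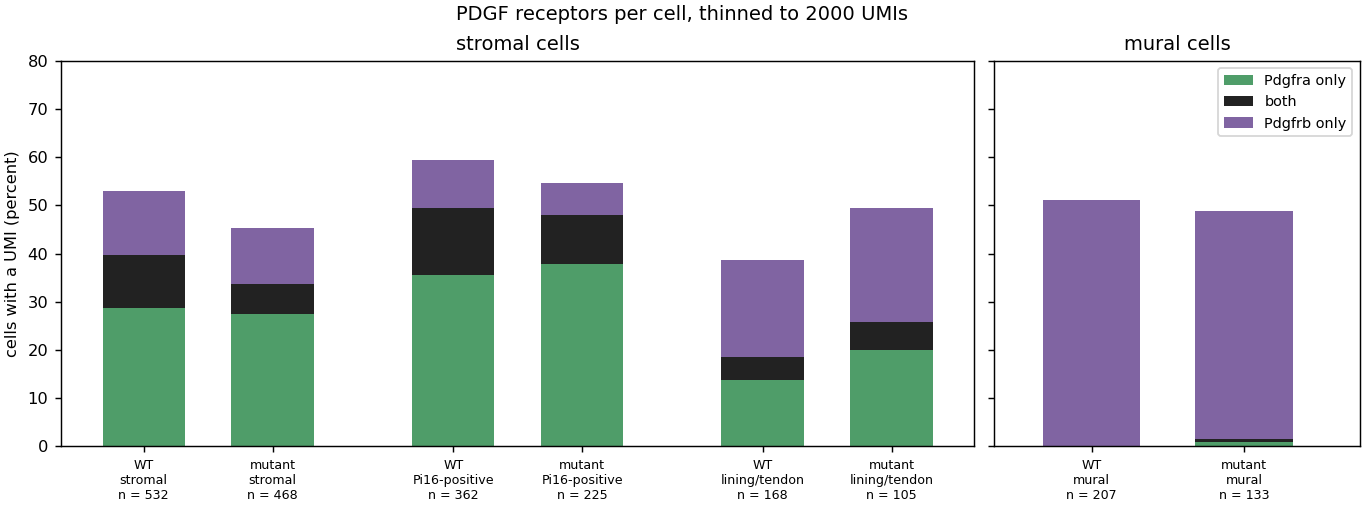
Share of cells (percent, vertical axis) with UMIs of Pdgfra only, of both receptors and of Pdgfrb only after thinning to 2000 UMIs, in all stromal cells, the Pi16-positive and the lining or tendon stromal cells, and mural cells, by library with the number of cells under each bar. Mural bars are almost wholly Pdgfrb, at 51.2% in WT, whereas stromal bars hold all 3 groups. The sizes of the groups depend on the thinned depth.

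The members counted in each class were too few to set their share of calls apart from that of all genes, in either direction. In endothelial cells 0 of the 4 members with at least 50 UMIs were called higher in the mutant and 1, Pdgfc, lower, where 2.51% of 10826 genes were called higher and 1.62% lower. In mural cells 0 of 5 were called in either direction, where 1.45% of 8192 genes were called higher and 2.4% lower. In stromal cells 0 of 5 were called, where 3.37% of 12094 genes were higher and 3.13% lower. In macrophages 0 of 5 were called, where 5.98% of 11161 genes were higher and 1.49% lower, and Pdgfb and Pdgfc lay just under the threshold. The median log2 ratio of the counted members was -0.19 in endothelial, -0.31 in mural, 0.02 in stromal and 0.52 in macrophage cells, beside 0.03, -0.03, 0.02 and 0.21 for all genes counted. Among subtypes, pericyte Pdgfd (log2 -1.18), lining or tendon Pdgfd (-2.00), inflammatory macrophage Pdgfb (1.37) and Pdgfrb of an unnamed stromal cluster (-1.32, -2.76 to 0.61) also passed 2-fold with at least 50 UMIs. Without the cell of most UMIs in each library the first 3 were -1.18, -1.74 and 1.33. No share of all genes past 2-fold was computed in subtypes, so these values cannot be set beside one. Pericytes were only 63 WT and 34 mutant cells.

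**Figure D5:**
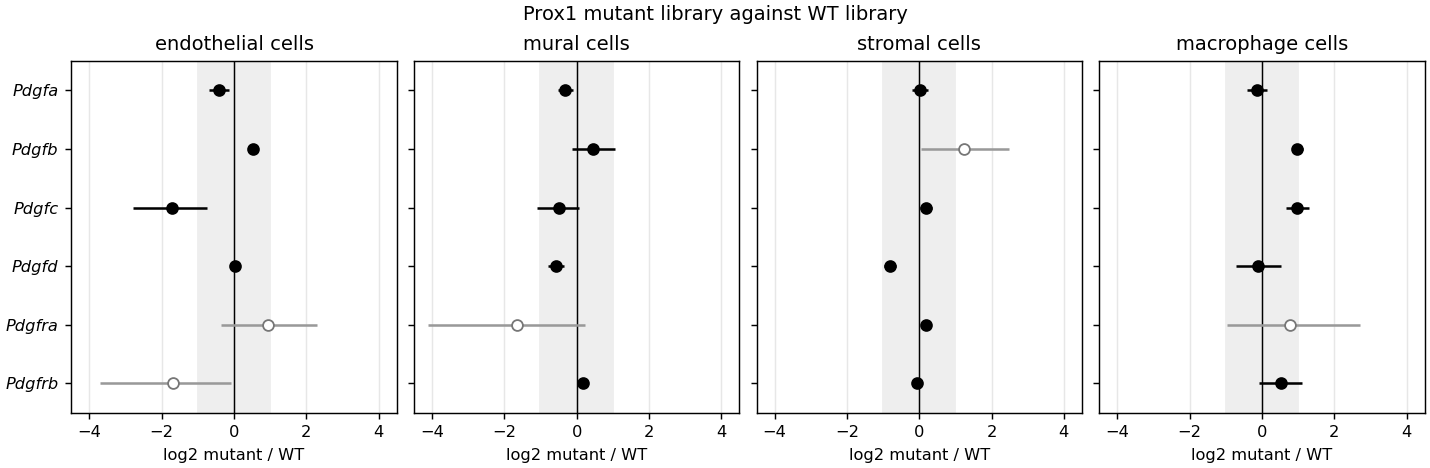
Log2 ratio of the mutant over the WT level of each member in endothelial, mural, stromal and macrophage cells, with 95% counting intervals. The grey band spans less than 2-fold, filled points have at least 50 UMIs over both libraries and open points fewer. Endothelial Pdgfc, at -1.71, is the only filled point outside the band.

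The rest of the pathway was read from a list of 70 genes. In endothelial cells 61 of them had at least 50 UMIs, of which 0 were higher by 2-fold in the mutant and 1 lower. In mural cells it was 0 higher and 2 lower of 60, in stromal cells 0 and 1 of 67, and in macrophages 3 and 2 of 59. Of all genes counted, 2.51% were higher and 1.62% lower in endothelial cells, and 1.45% and 2.4% in mural cells. In stromal cells it was 3.37% and 3.13%, and in macrophages 5.98% and 1.49%. The calls were too few to set the list apart from all genes. The medians of the list were -0.01, -0.08, -0.06 and 0.18 on the log2 scale, beside 0.03, -0.03, 0.02 and 0.21 for all genes counted.

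Among genes listed for the processing and activation of PDGF chains in general, Plat was highest in stromal (107 and 83.1 CPM) and mural cells (96.6 and 68.9 CPM). It encodes tissue plasminogen activator, the protease that cleaves PDGF-C. Furin, a proprotein convertase, stood at 54.8 and 59.2 CPM in endothelial cells and 77.2 and 121 CPM in macrophages. Pcsk5, another convertase, was the highest of this group in stromal cells, at 561 and 293 CPM. None of this group was called in any class.

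Among binding partners and co-receptors, Sparc, a matrix protein that binds PDGF-B, was the highest in mural (2010 and 1183 CPM) and stromal cells (9581 and 6409 CPM), and stood at 1327 and 1029 CPM in endothelial cells. Nrp1, a co-receptor, stood at 878 and 1163 CPM in endothelial cells and 248 and 290.3 CPM in macrophages. Lrp1, an endocytic partner of the beta receptor, stood at 637 and 551 CPM in stromal cells, and Thbs1 at 479 and 372 CPM in mural cells. Pdgfrl, a secreted protein resembling a PDGF receptor, was called lower in the mutant in stromal cells (108 and 49.7 CPM, log2 -1.12) and in macrophages (14.6 and 6.07 CPM, log2 -1.27).

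Among adaptors and effectors, Stat3, a transcription factor downstream of many receptors, was the highest in all 4 classes, from 338 and 427 CPM in macrophages to 676 and 673 CPM in endothelial cells. Of the 21 to 23 genes of the group counted in a class, only Fyn in macrophages was called, a kinase of the Src family, at 77.3 and 155 CPM (log2 1.001).

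Among inhibitors, Spry1, a feedback inhibitor of receptor tyrosine kinases, was measured at 83.0 and 29.1 CPM in endothelial cells, a log2 ratio of -1.51 (-1.78 to -1.25), and at 31.6 and 12.6 CPM in mural cells, a log2 ratio of -1.32 (-2.08 to -0.61). Its relative Spry2 was called lower in macrophages (6.68 and 3.11 CPM, log2 -1.10). Socs3 (231 and 163 CPM in endothelial cells) and Ptprj (492 and 732 CPM in macrophages), which led this group in their classes, were not called.

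Early response genes are induced by growth factors and by tissue dissociation. Of these, Fos stood at 4059 and 3369 CPM in mural cells, 2303 and 1843 CPM in stromal cells, 1302 and 1149 CPM in endothelial cells and 1346 and 1650 CPM in macrophages. In macrophages Ccl2, a monocyte chemoattractant, went from 35.1 to 122 CPM (log2 1.79) and Egr3 from 11.8 to 28.5 CPM (log2 1.27). In mural cells Ccl2 was lower in the mutant, at 28.0 and 12.6 CPM (log2 -1.15). The other genes of this group counted in these classes were not called.

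UMIs of the genes were also counted in other named classes. Osteoblast or osteocyte cells, 30 in WT and 23 in the mutant, had 549 and 544 CPM of Pdgfd, 134 and 110 CPM of Pdgfc, 226 and 166 CPM of Pdgfra, 143 and 268 CPM of Pdgfrb, and 74.2 and 152 CPM of Pdgfa. A single mutant cell could hold much of this, with 140 of the 301 Pdgfd UMIs, 44 of the 61 Pdgfc UMIs and 38 of the 84 Pdgfa UMIs. Schwann cells had 68.3 and 49.1 CPM of Pdgfa and 56.8 and 14.2 CPM of Pdgfc. Erythroid cells had 41.4 and 80.2 CPM of Pdgfd, higher in the mutant. Besides Schwann Pdgfc and osteoblast or osteocyte Pdgfa, the values past 2-fold with at least 50 UMIs were Pdgfb in erythroid cells (11.9 and 3.06 CPM), Pdgfd in adipocytes (15.2 and 135 CPM) and chondrocytes (2.15 and 115 CPM), each on 2 WT UMIs, and Pdgfrb in chondrocytes (22.6 and 57.4 CPM). Adipocytes came from a cluster of 0 WT and 90 mutant cells and a cluster of 6 WT and 24 mutant cells, so WT had almost none to compare. Without the cell of most UMIs in each library osteoblast or osteocyte Pdgfa had a log2 ratio of 0.74, under 2-fold. No share of all genes past 2-fold was computed in these other classes.

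The genes whose levels went most like those of each member were found over 31 points, 16 named cell types by library with at least 20 cells, as Pearson's r of log2(CPM + 5) among 13372 genes. Points of 1 library share depth and dissociation, and the r values are descriptions. Pdgfd went with Kitl (0.913) and Cxcl12 (0.910), Pdgfb with Cracr2b (0.813), F11r (0.786) and Edn1 (0.781), and Pdgfa with Ift43 (0.932) and Cald1 (0.925). Pdgfc went with Olfml1 (0.811) and Efna5 (0.809), Pdgfra with Cpxm1 (0.952), Dchs2 (0.926) and Lum (0.921), and Pdgfrb with Pla2r1 (0.958) and Bmp5 (0.954). Among the members themselves, Pdgfa and Pdgfrb (0.811) and Pdgfc and Pdgfra (0.758) were the most alike pairs, and Pdgfb and Pdgfra (-0.309) the least.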

How the data were processed

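Cells of the TMJ were captured in droplets and sequenced with the 10x Genomics 3' chemistry, for which the labels and the paper name different versions and digestions. The authors aligned reads to GRCm38 (mm10) in Cell Ranger 7.0.1, and the deposited values are UMI counts per gene and barcode with no normalization. Whether intronic reads were counted or doublets removed is not given in the sources used here.

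Barcodes needed 500 genes or more and a mitochondrial share below 10%, the limits of the study's methods. They were clustered in R 4.3.3 by Seurat 5.3.0, using sctransform 0.4.2 (SCTransform, integration by anchors, 3000 features less the members, 200 principal components, resolution 1.5). Of 43 clusters 33 were named. A marker was raised at 2-fold (on CPM + 5) in at least 10% of cells, and a name needed 3 raised markers. A cluster stayed unnamed where markers of another lineage led or were widely raised, or where its depth was low and no marker of its name was among its leading genes. Names of the study may differ from these rebuilt ones.

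UMIs were summed per class and library. With 1 library per group, no p-value was computed. Intervals (exact Poisson, exact binomial, Clopper-Pearson for shares, Newcombe for differences of shares) cover counting error only. A count of 0 was set to 3 UMIs for calls over all genes. The total depth of these cells was 48366846 (WT) and 54330221 UMIs (mutant). Scrublet's own threshold called 0 doublets in both libraries, so the highest scores, 239 and 462 barcodes, stood for doublets in the alternative without them, and doublets were left in otherwise. The steps were tested on simulated data. Alternatives changed the cell filters, doublets, integration, principal components, resolution, clustering features, class assignment, scaling, UMI minimum, thinned depth and pseudocount. Doublets were scored with Scrublet in scanpy 1.11.5, and statistics were computed with numpy 2.4.6 and scipy 1.17.1 in Python 3.11.15.

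The members, marker lists and pathway list were chosen with earlier results of these data known. By the rule for named genes, the members are given in all classes, and pathway genes are named from those called (up to 3 per direction and class) and from the 2 of highest CPM per group and class, and for likeness up to 5 genes per member. Which of these are printed, and the single cells and marker sums, were chosen after their values were seen. Some items are not reported here.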

Additional observations from a re-analysis of the deposited data

Results flagged for a closer look

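Some members differed between the libraries in opposite directions in different subtypes, with counting intervals on either side of 0. With 1 library per group none of these differences was tested. Pdgfd had a log2 ratio of mutant over WT of 0.35 in arterial endothelial cells and -2.00 in lining or tendon stromal cells. Pdgfa had 0.60 in arterial and -0.98 in venous endothelial cells, with 25 of 59 and 31 of 79 mutant UMIs in 1 cell each. Without the cell of most UMIs in each library these were -0.02 and -1.54, so the opposite directions rested on single cells. Lining or tendon Pdgfd was then -1.74 and arterial Pdgfd 0.27. Pdgfrb had 0.85 in inflammatory macrophages, on 31 and 43 UMIs, and -0.22 in Pi16-positive stromal cells.

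Signal was also seen in clusters left unnamed and so outside the comparisons. A shallow cluster of 121 WT and 169 mutant cells, in which all 9 endothelial markers were raised, held 191 and 172 CPM of Pdgfb and 1410 and 1185 CPM of Pdgfd. A cluster of 85 WT and 29 mutant cells led by Dok6, Plppr1, Gpc5 and Rspo4 held 1137 and 972 CPM of Pdgfd, close to the endothelial level.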

How the results depend on the processing

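No paired analysis was possible because each group has 1 library. The leading class stayed above the next in 13 of 13 alternatives for each member, with log2 Pdgfra of stroma over mural cells down to 4.60 with classes from marker UMIs, and scaling by the median ratio gives no value there. Mutant Pdgfb was higher in 14 of 14 alternatives in endothelial cells (0.38, per-cell CPM, to 0.58) and in macrophages (0.77, median scaling, to 1.001), as was macrophage Pdgfc (0.27, per-cell CPM, to 1.17), and Pdgfd was lower in 14 of 14 in mural (-0.90 to -0.18) and stromal cells (-1.05 to -0.49). The log2 ratio of endothelial Pdgfd was 0.093 with the looser filter, 0.12 with the stricter one, 0.11 without integration, 0.089 with 30 components, 0.091 at resolution 0.5, 0.089 with members among the features and -0.063 as per-cell CPM. That of stromal Pdgfra was 0.085 with the looser filter, 0.075 without integration, 0.11 from marker UMIs, -0.39 as per-cell CPM and 0.29 without clusters held over 90% by 1 library, an alternative chosen after seeing the data. That of mural Pdgfrb was -0.012 with the stricter filter, -0.00053 with doublets removed, -0.0058 without integration and -0.17 as per-cell CPM. Endothelial Pdgfc reversed to 0.52 as per-cell CPM.

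The number of members called in macrophages was 1 with the looser filter (Pdgfd, 1.08), with doublets removed (Pdgfd, 1.16), without integration (Pdgfc, 1.02) and at resolution 0.5 (Pdgfb, 1.001), and 2 from marker UMIs (Pdgfc, 1.17, and Pdgfd, 1.09). Macrophage Pdgfd kept its sign in 7 of 14 alternatives, from -0.31 to 1.16. In endothelial cells it was 2 from marker UMIs and at a minimum of 20 UMIs, and 0 at 200 UMIs, as per-cell CPM, without the cell of most UMIs and with unnamed clusters added to the nearest class. In stromal cells it was 1 from marker UMIs and at 20 UMIs. The pathway list had 0 calls in mural cells at 200 UMIs and 3 in stromal cells at 20 UMIs. No share of all genes past 2-fold is given for these alternatives. The counts of members and of list genes called in them cannot be set beside one. Differences of shares were 3.65 points for endothelial Pdgfb and -0.12 for both receptors in stroma at 1000 UMIs, and 16.0 for mural Pdgfrb, 9.30 for macrophage Pdgfb and -0.51 for both receptors at 4000 UMIs. With log2(CPM + 1), 2 of the 5 genes most like Pdgfa, 2 of those most like Pdgfb and 1 of those most like Pdgfc were kept. Of the 288 alternatives of the main results 245 were marked as the same and 43 as moved. Ratios and shares were marked by their counting intervals, and counts of calls and of like genes by a fixed fold. The causes were not tested.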
